A study of Rattus norvegicus with 9 samples.

Results

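The genes described here are 10 genes by which Kupffer cells and other macrophages are recognised in liver, namely Cd68, Cd163, Clec4f, Csf1r, Vsig4, C1qa, C1qb, Marco, Cd14 and Adgre1. They were chosen by name, and their probes were found through the RefSeq identifier that the array files give for each probe. This gave 13 probes for the 10 genes, among 41012 probes and 13438 named genes on the array. Cd163, C1qa and Cd14 were each measured by a pair of probes, of which the brighter is given unless the other is named.

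Liver RNA of 9 male rats was hybridised to one-colour Agilent arrays with no pooling of animals, and each of the 3 groups held 3 rats. The control rats received neither radiation nor drug. The TBI rats received total-body irradiation with 6.5 Gy from a 60Co source at 2 Gy/min. The HSC + TBI rats were given Hong Shan Capsule (HSC), a herbal preparation, into the stomach for 3 days and then the same 6.5 Gy. The dose of HSC was 10 g/kg per day according to the series description and 30 mg/kg per day according to the sample labels, and it entered no calculation here. All livers were taken at 24 h. No group received HSC without radiation, so the effect of HSC in unirradiated liver was not measured. The question addressed was how these genes stood after TBI, and whether their levels differed when HSC had been given first.

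Kupffer cells are the resident macrophages of the liver. They sit in the sinusoids, where they take up particles, bacterial products, complement-coated material and ageing red cells from portal blood. Their survival depends on signals through the receptor Csf1r, and their identity on transcription factors such as PU.1, the product of Spi1, which binds DNA around a GGAA core. In whole liver RNA, fewer macrophages and less RNA per macrophage cannot be told apart.

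The arrays showed a spread that bears on every value below. Between 56.65% and 59.33% of probes were well above background in control rats, 63.57% to 69.54% in TBI rats and 58.66% to 60.46% in HSC + TBI rats. The 3 control arrays lay on 1 slide, the 3 TBI arrays on another, and the HSC + TBI arrays on a further pair of slides, so slide and group cannot be told apart. The labelled tissue was borne out by 9 of 9 hepatocyte markers, including Alb and Ttr, whose summed linear signal was 1388000 to 1463000 in control, 1335000 to 1480000 in TBI and 1385000 to 1472000 in HSC + TBI rats. No spot was flagged as saturated. The 13 probes of the 10 genes were well above background on all 9 arrays, so each could be compared in every rat.

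The sequence upstream of the start site is shown for 3 of the genes because their levels ran together or apart in the values that follow. C1qa and C1qb lie close together on 1 chromosome, encode chains of one protein and had nearly the same pattern over the 9 rats, whereas Cd14 did not follow the others. The 250 bases before the start site are from RefSeq on build GRCr8, given 5′ to 3′ on the strand of the gene, at chr5:154419934-154420183 for C1qa, chr5:154407828-154408077 for C1qb and chr18:28611159-28611408 for Cd14, all on the minus strand. Capitals mark AGGAAG, a form of the core bound by PU.1 and other ETS factors, or its reverse complement.
C1qa: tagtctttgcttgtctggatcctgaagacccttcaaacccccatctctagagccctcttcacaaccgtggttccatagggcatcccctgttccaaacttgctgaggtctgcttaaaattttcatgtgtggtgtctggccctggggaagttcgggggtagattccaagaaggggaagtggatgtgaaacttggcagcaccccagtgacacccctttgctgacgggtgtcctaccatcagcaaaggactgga
C1qb: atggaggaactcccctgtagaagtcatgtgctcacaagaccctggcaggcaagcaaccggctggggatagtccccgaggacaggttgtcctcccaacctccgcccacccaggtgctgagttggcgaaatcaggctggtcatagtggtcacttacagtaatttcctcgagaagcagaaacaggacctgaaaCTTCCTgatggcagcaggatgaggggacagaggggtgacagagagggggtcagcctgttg
Cd14: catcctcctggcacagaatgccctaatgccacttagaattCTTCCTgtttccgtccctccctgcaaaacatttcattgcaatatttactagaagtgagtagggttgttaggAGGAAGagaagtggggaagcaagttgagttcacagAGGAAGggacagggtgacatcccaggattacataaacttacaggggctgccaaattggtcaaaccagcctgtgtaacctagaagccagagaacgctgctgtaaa
AGGAAG was found on either strand in 6 of the 10 upstream windows (Cd163, Csf1r, C1qb, Marco, Cd14 and Adgre1), and in 29.5% of the 33469 RefSeq windows of the same length. The longer PU.1 form GAGGAAGT, which contains the shorter one, was found in 0 of the 10 and in 2.04% of all windows. The window of Cd14 held 3 matches, that of C1qb held 1 and that of C1qa held 0. These matches describe letters in a window and were not tested against the expression values.

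In outline, 9 of the 10 genes had a lower mean in HSC + TBI than in TBI rats, where 41.3% of all tested probes did. Of these, 7 had no overlap between the groups, where 8.74% of probes were lower without overlap. None of the 10 passed the threshold of the test, which 0.796% of probes passed. After TBI without HSC, 8 of the 10 had a higher mean than in controls, always with overlap, where 13.3% of probes were higher without overlap. Cd14 was the exception to the lower level in HSC + TBI rats. A gene was called changed where limma gave a Benjamini-Hochberg adjusted p under 0.05 over 25369 probes together with a difference of at least 1.5-fold. Levels below are log2 normalised signals, and differences are on the same scale.

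**Figure D1:**
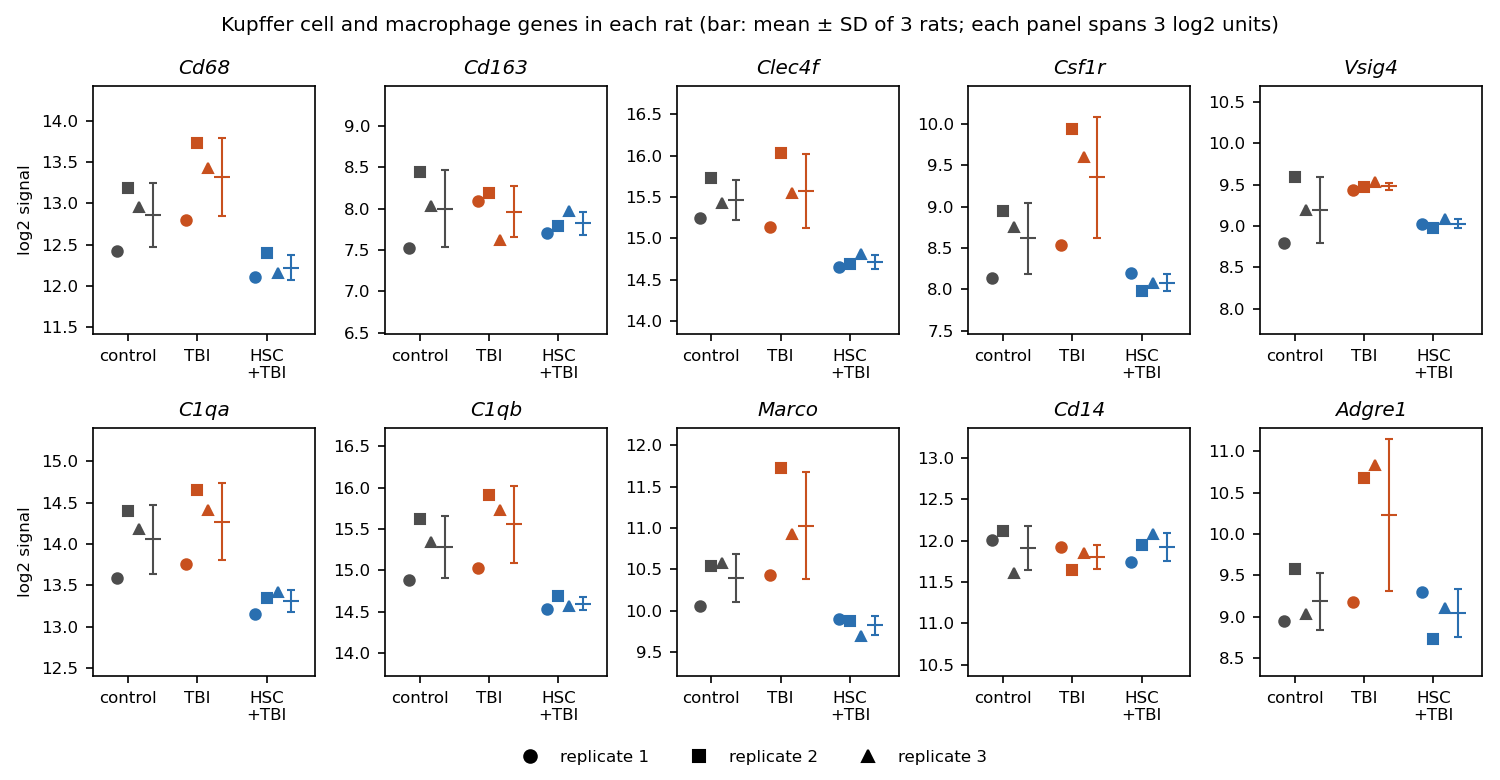
Log2 normalised signal (y axis, with a range of its own in each panel and 3 log2 units high in all of them) of the 10 genes by group (x axis), with 1 point per rat and the mean ± SD of 3 rats. The HSC + TBI points lie below all TBI points for Cd68, Clec4f, Csf1r, Vsig4, C1qa, C1qb and Marco, and overlap them for Adgre1, Cd163 and Cd14.

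Csf1r is the receptor for the macrophage growth factor and marks the whole lineage. Its log2 signal was 8.14, 8.95 and 8.76 in control rats, 8.53, 9.94 and 9.60 in TBI rats, and 8.19, 7.98 and 8.07 in HSC + TBI rats. The lowest TBI rat lay within the control range, while all HSC + TBI rats lay below all TBI rats. HSC + TBI differed from TBI by -1.27 (95% interval -2.07 to -0.48), a 2.42-fold lower mean with an adjusted p of 0.138 by limma. TBI differed from control by 0.74 (95% interval -0.05 to 1.54, adjusted p = 0.226 by limma).

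Adgre1 encodes an adhesion receptor of the cell surface by which rodent macrophages are commonly counted. It was 8.95, 9.58 and 9.04 in control, 9.18, 10.68 and 10.83 in TBI and 9.30, 8.73 and 9.11 in HSC + TBI rats. TBI rats 2 and 3 stood above all others, and TBI rat 1 lay among the controls. The difference between TBI and control of 1.04 (95% interval 0.11 to 1.98) was the one difference of that comparison with an unadjusted p under 0.05 among the 10 genes, at an adjusted p of 0.159 by limma. HSC + TBI differed from TBI by -1.19 (95% interval -2.12 to -0.25, adjusted p = 0.211 by limma), with overlap at TBI rat 1.

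Cd68 is a glycoprotein of macrophage lysosomes. Its signal was 12.43, 13.19 and 12.96 in control, 12.80, 13.73 and 13.43 in TBI and 12.11, 12.40 and 12.16 in HSC + TBI rats. The HSC + TBI rats were the lowest of all 9, just below control rat 1. The mean was 2.14-fold lower in HSC + TBI than in TBI rats, with a difference of -1.10 (95% interval -1.70 to -0.49) and the lowest adjusted p of the 10 genes by limma in this comparison, 0.108. Against control the difference was -0.63 (95% interval -1.24 to -0.03, adjusted p = 0.235 by limma).

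Clec4f is a lectin of the rodent Kupffer cell surface and is used to tell resident liver macrophages from others. It measured 15.25, 15.73 and 15.43 in control, 15.14, 16.04 and 15.55 in TBI and 14.65, 14.69 and 14.81 in HSC + TBI rats. Control and TBI rats overlapped, and every HSC + TBI rat lay below all of them. The difference between TBI and control was 0.11 (95% interval -0.40 to 0.62). HSC + TBI differed by -0.86 from TBI (95% interval -1.37 to -0.35, adjusted p = 0.125 by limma) and by -0.75 from control (95% interval -1.26 to -0.24, adjusted p = 0.112 by limma), which is 1.82-fold and 1.68-fold lower.

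Among the receptors for uptake, Marco is a scavenger receptor that binds bacteria and particles. Its signal was 10.06, 10.54 and 10.58 in control, 10.43, 11.73 and 10.93 in TBI and 9.90, 9.88 and 9.69 in HSC + TBI rats. The HSC + TBI rats were below all control and TBI rats. The mean was 2.31-fold lower than in TBI rats, at a difference of -1.21 (95% interval -1.89 to -0.52, adjusted p = 0.114 by limma).

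Vsig4 is a complement receptor through which Kupffer cells capture coated bacteria. It stood at 8.80, 9.59 and 9.20 in control, 9.44, 9.47 and 9.53 in TBI and 9.02, 8.98 and 9.08 in HSC + TBI rats. Both irradiated groups were narrow and did not overlap, but each lay inside the wider range of the controls. HSC + TBI differed from TBI by -0.45 (95% interval -0.87 to -0.03, adjusted p = 0.272 by limma).

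Cd163 takes up haemoglobin bound to haptoglobin. Its brighter probe gave 7.52, 8.45 and 8.03 in control, 8.09, 8.19 and 7.62 in TBI and 7.70, 7.79 and 7.98 in HSC + TBI rats. The groups overlapped throughout. HSC + TBI differed from TBI by -0.14 (95% interval -0.70 to 0.41) and an adjusted p of 0.807 by limma. The dimmer probe of Cd163 gave -0.23 there (95% interval -0.78 to 0.32, adjusted p = 0.672 by limma). Between TBI and control the brighter probe differed by -0.03 and the dimmer by 0.11, opposite in sign and both with overlap.

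C1qa and C1qb encode chains of C1q, the recognition protein of the classical complement pathway, which in liver is made by macrophages. C1qa was 13.59, 14.40 and 14.18 in control, 13.75, 14.65 and 14.41 in TBI and 13.16, 13.35 and 13.42 in HSC + TBI rats. C1qb was 14.88, 15.62 and 15.35 in control, 15.02, 15.91 and 15.73 in TBI and 14.53, 14.69 and 14.57 in HSC + TBI rats. For both chains the HSC + TBI rats were below every rat of the other groups. C1qa was 1.95-fold lower in HSC + TBI than in TBI rats, at a difference of -0.96 (95% interval -1.58 to -0.35, adjusted p = 0.146 by limma). C1qb was 1.94-fold lower, at -0.96 (95% interval -1.54 to -0.38, adjusted p = 0.133 by limma). The dimmer probe of C1qa also showed no overlap, at a mean of 12.43 in HSC + TBI rats against 13.23 in controls and 13.25 after TBI alone.

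Cd14 is the co-receptor that passes lipopolysaccharide to the toll-like receptor Tlr4. Its signal was 12.01, 12.11 and 11.61 in control, 11.92, 11.64 and 11.85 in TBI and 11.75, 11.95 and 12.08 in HSC + TBI rats. All 3 groups overlapped. HSC + TBI differed from TBI by 0.12 (95% interval -0.25 to 0.50, adjusted p = 0.749 by limma). The dimmer probe of Cd14 gave a difference of 0.29 (95% interval -0.02 to 0.60), with HSC + TBI rats above TBI rats without overlap and an adjusted p of 0.339 by limma.

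The 3 comparisons can be set side by side, although each pair of them shares a group of rats. Between TBI and control, limma called 0 of the 10 genes, where 7.25% of all tested probes were called. Their median difference was 0.28, against -0.01 over all tested probes. None of the 10 was free of overlap, where 28.9% of probes were (13.3% of probes in the higher direction), and 1 had an unadjusted p under 0.05, where 25.5% of probes did. The count without overlap was 6 higher when TBI rat 1 was left out, 2 higher when control rat 2 was, and 1 lower when control rat 3 was. With all rats, 15.6% of probes were lower without overlap. The share of all probes was not counted with a rat left out, where smaller groups overlap less readily. The count at an unadjusted p under 0.05 was 5 without TBI rat 1, 2 without control rat 2, and 0 without control rat 1, control rat 3, TBI rat 2 or TBI rat 3. The median was 0.08 without control rat 1, 0.46 without control rat 2, 0.50 without TBI rat 1 and 0.18 without TBI rat 2. Csf1r and Adgre1 were called when TBI rat 1 was left out, where 7.13% of probes were called.

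Between HSC + TBI and control, limma called 0 of the 10, where 3.23% of probes were called. The mean was lower for 9 of the 10, and 5 of them (Cd68, Clec4f, C1qa, C1qb and Marco) did not overlap, where 13.7% of probes were lower without overlap. An unadjusted p under 0.05 was reached by 4, all lower, where 19.6% of probes reached it in either direction. The median difference was -0.55, against 0.05 over all tested probes. Leaving out control rat 1 gave 8 genes without overlap. A smaller group overlaps less readily, and the share of all probes without overlap was not counted for this setting. The count at an unadjusted p under 0.05 was 1 without control rat 2, without control rat 3 and without HSC + TBI rat 1, and 2 without HSC + TBI rat 3.

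Between HSC + TBI and TBI, limma again called 0 of the 10, where 0.796% of probes were called. The 7 genes that were lower without overlap stood against 8.74% of all tested probes, and the 8 genes with an unadjusted p under 0.05 against 16.3% in either direction. The median difference was -0.96, against 0.06 over all tested probes. The count of called genes rested on TBI rat 1. With all rats, 0.564% of probes were called lower. Without that rat, 7 genes were called lower (Cd68, Clec4f, Csf1r, C1qa, C1qb, Marco and Adgre1). In that setting 3.74% of all tested probes were called in either direction, and 21.7% of those calls were higher. Leaving out any other single rat gave 0. A fit with slide as a random block, whose estimated correlation was -0.327, called the same 7 genes in this comparison, 4 (Cd68, Clec4f, C1qa and C1qb) between HSC + TBI and control, and 3 (Csf1r, Marco and Adgre1) between TBI and control. The same fit called 8.89%, 10.1% and 17.8% of all tested probes in these comparisons, in the same order. Without the block these shares were 0.796%, 3.23% and 7.25%. Each slide held arrays of 1 group, so this fit cannot take a difference between slides out of a difference between groups. The methods' t-test without adjustment called 1 gene in each comparison with HSC + TBI, Cd68 against TBI and Clec4f against control, and 0 between TBI and control, where it called 3.68%, 6.67% and 8.37% of probes in that order. After Benjamini-Hochberg adjustment it called 0 in all 3.

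**Figure D2:**
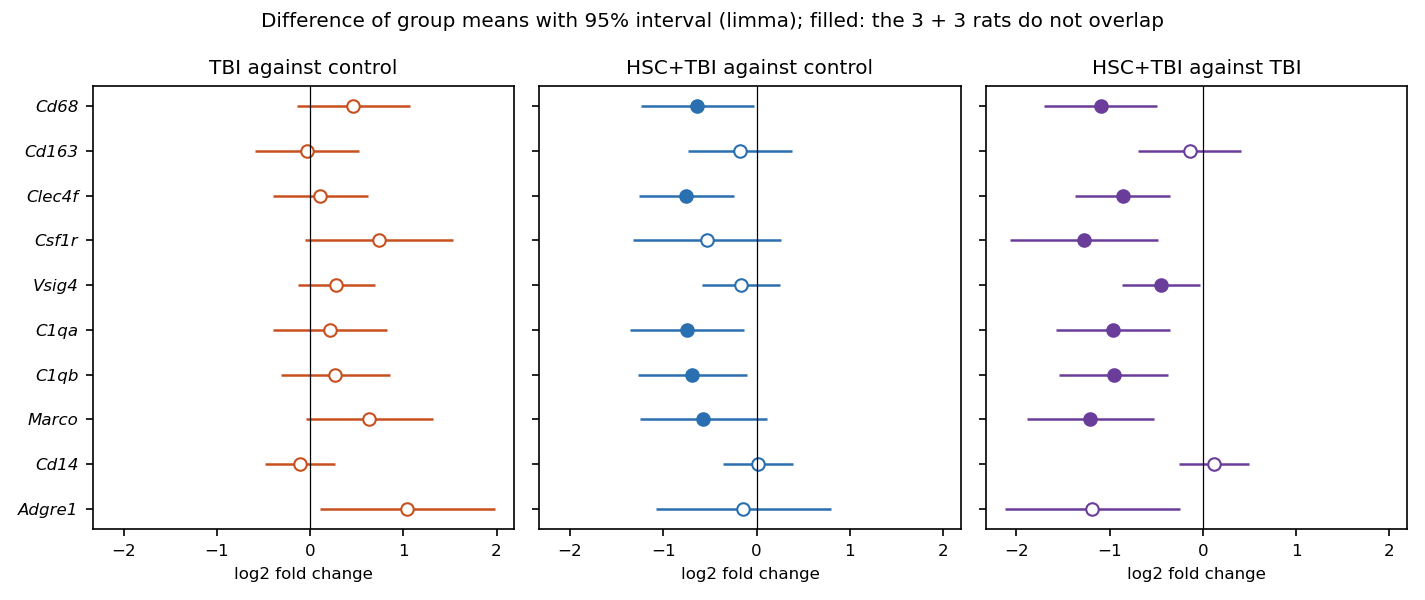
Difference in log2 signal (x axis) of each of the 10 genes (y axis) in the 3 comparisons, with the 95% interval of the limma fit and filled points where the groups did not overlap; the vertical line at 0 marks no difference. Between HSC + TBI and TBI, 8 intervals lie below 0, and those of Cd163 and Cd14 span it.

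The pattern over single rats was shared by most of the genes. Control rat 1 was the lowest control for 9 of the 10 genes and control rat 2 the highest for 9. Among irradiated rats without HSC, TBI rat 1 was the lowest for 8 and TBI rat 2 the highest for 7. Averaged over the 10 genes, the deviation from each gene's own mean was -0.31, 0.34 and 0.04 in the control rats, -0.04, 0.73 and 0.48 in the TBI rats, and -0.44, -0.43 and -0.37 in the HSC + TBI rats. The HSC + TBI rats were thus nearly alike, and the TBI rats were spread over a range wider than the distance between the control and HSC + TBI means. The SD among HSC + TBI rats was smaller than among controls for 10 of the 10 genes, where this held for 55.4% of all tested probes. It was smaller than among TBI rats for 8 of the 10, where this held for 67.9%.

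**Figure D3:**
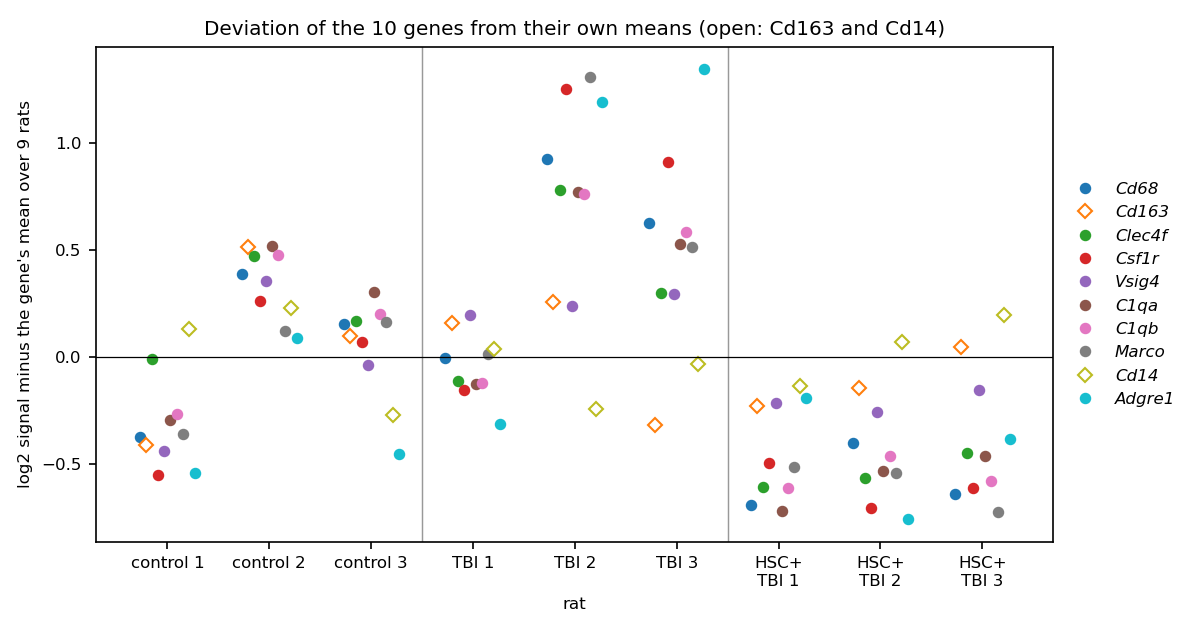
Log2 signal of each of the 10 genes minus its own mean over the 9 rats (y axis) in each rat (x axis), with filled circles for 8 genes and open diamonds for Cd163 and Cd14. TBI rats 2 and 3 hold the highest values, TBI rat 1 lies near 0, and the HSC + TBI rats lie mostly below 0.

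Over the 9 rats the correlation between genes, given as a description, ran from -0.55 to 0.99 in the 45 pairs. It was highest for C1qa with C1qb, at 0.99. In the 28 pairs that leave out Cd163 and Cd14, a split made after these values were seen, it ran from 0.70 to 0.99. Cd163 ran between 0.11 and 0.65 with those genes, and Cd14 between -0.55 and 0.05 with the other 9. The points of such a correlation share their array, and differences between the groups enter it.

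The genes most like the mean of the 10 over the 9 rats, out of 8525 named genes above background on all arrays, were Tnnt1 at a Pearson r of 0.992, Arhgap9 at 0.99, Hmox1 at 0.987, Nckap1l at 0.986 and Fermt3 at 0.986. Arhgap9, Nckap1l and Fermt3 are known from blood cells, Hmox1 encodes haem oxygenase 1, and Tnnt1 a troponin of slow skeletal muscle. Fermt3, for example, averaged 9.74 in controls, 10.05 after TBI and 9.15 with HSC before TBI.

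Other macrophage genes were read from lists of known markers. Of 17 further genes of macrophages and myeloid cells with a tested probe, 17 had a lower mean in HSC + TBI than in TBI rats. Of these, 12 were lower without overlap and 12 had an unadjusted p under 0.05, with a median difference of -1.23. Cd86, which is in each of these counts, entered the test only through the TBI group, where it was highest. It was well above background on 2 of 3 control, 3 of 3 TBI and 0 of 3 HSC + TBI arrays. Of 7 further Kupffer cell genes, such as the folate receptor gene Folr2 and the iron exporter gene Slc40a1, 7 were lower, 5 without overlap and 5 at an unadjusted p under 0.05, with a median of -0.65. Of all tested probes, 41.3% were lower in this comparison, 8.74% were lower without overlap and 16.3% had an unadjusted p under 0.05. The integrin chain gene Itgb2 was the 1 gene of these lists that limma called. Of all tested probes, 7.25% were called between TBI and control and 0.796% between HSC + TBI and TBI. Itgb2 rose in TBI rats, to 9.66, 10.27 and 10.12 from 9.06, 9.32 and 9.07 in controls (difference 0.87, adjusted p = 0.0233 by limma), and was lower in HSC + TBI rats, at 8.81, 9.14 and 8.86 (difference -1.08 from TBI, adjusted p = 0.0435 by limma). The call between TBI and control was lost without control rat 1, control rat 3 or TBI rat 2, and the call between HSC + TBI and TBI when any single rat other than TBI rat 1 was left out. Itgam, which pairs with Itgb2, differed by -2.29 between HSC + TBI and TBI (adjusted p = 0.0949 by limma).

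**Figure D4:**
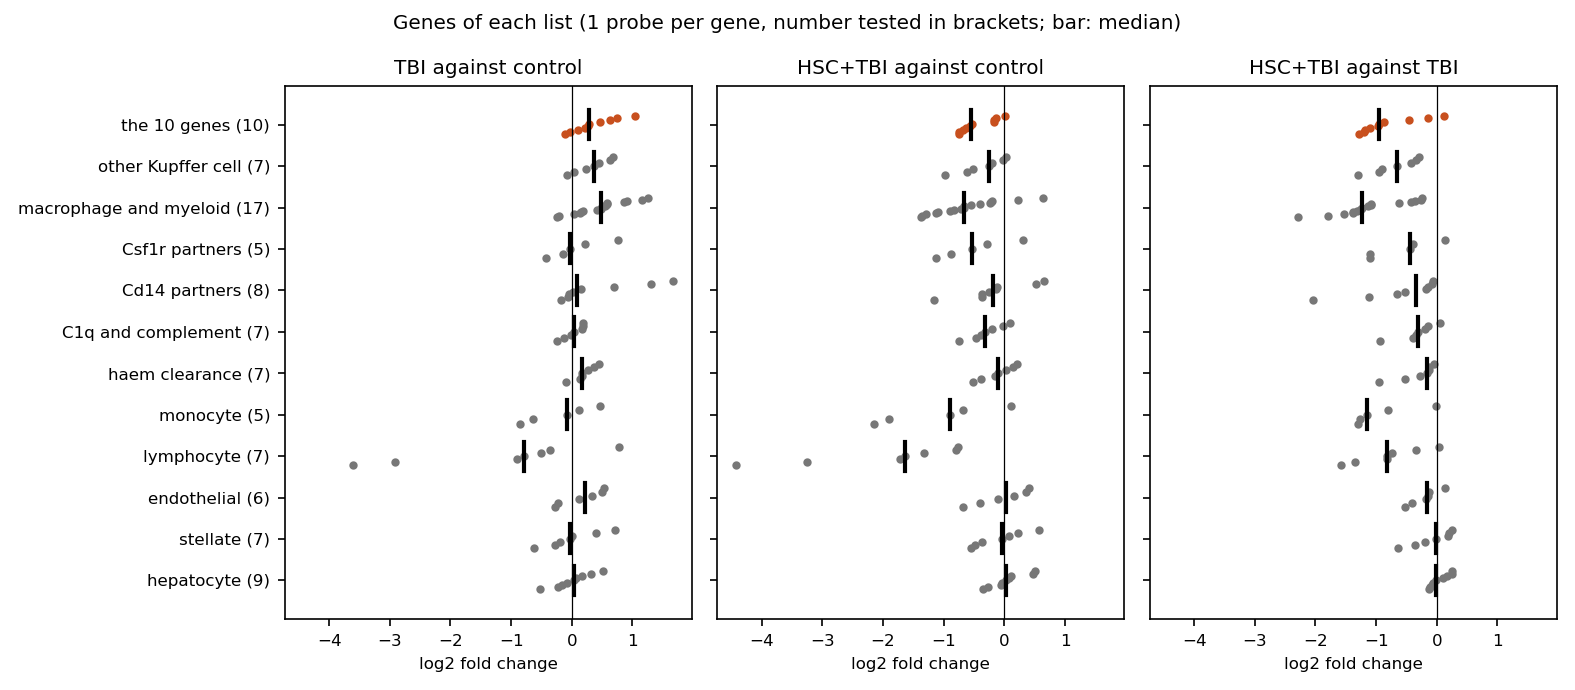
Difference in log2 signal (x axis, the same range in all panels) of the tested genes of each marker list (y axis) in the 3 comparisons, with 1 point per gene and a bar at the median of the list. Between HSC + TBI and TBI the median is -0.96 for the 10 genes, -1.23 for other macrophage genes and -0.01 for hepatocyte markers.

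The partners of the 10 genes were examined by role, and Spi1, Tlr4 and C1qc, like Folr2, Slc40a1 and Itgam above, are named after their values were seen. Of 5 tested genes of the Csf1r axis, 4 were lower in HSC + TBI than in TBI rats, where 41.3% of all tested probes were lower. In this comparison 0 of the 5 were called, where 0.796% of probes were. Spi1 differed by -1.10 from TBI (adjusted p = 0.233 by limma), and by -0.03 between TBI and control. Cebpb, a transcription factor of myeloid cells and hepatocytes, rose after TBI (difference 0.76, adjusted p = 0.0356 by limma), a call that was lost when any single rat other than TBI rat 2 was left out and under 5 other settings. Of 8 tested genes of lipopolysaccharide sensing, 5 had a higher mean in TBI than in control rats and 3 a lower one. Without overlap, 3 were higher and 1 was lower, where 13.3% of all tested probes were higher and 15.6% lower without overlap. Limma called 2 of the 8, both higher, where 7.25% of all tested probes were called in either direction. Lbp, the plasma protein that hands lipopolysaccharide to Cd14, differed by 1.31 (adjusted p = 0.0275 by limma), and the call was lost without any 1 of the control rats or TBI rat 2. Tlr2, the receptor for bacterial lipoproteins, was 9.01, 9.32 and 8.82 in control, 9.70, 11.56 and 10.92 in TBI and 8.52, 8.85 and 8.69 in HSC + TBI rats. Its rise after TBI (difference 1.68, adjusted p = 0.0396 by limma) was lost when any single rat other than TBI rat 1 was left out. Tlr4 differed by -1.12 between HSC + TBI and TBI (adjusted p = 0.188 by limma), with no overlap. In the list of C1q partners, the gene of the third chain, C1qc, differed by -0.94 between HSC + TBI and TBI (adjusted p = 0.135 by limma), close to C1qa and C1qb, while the median of the 7 tested genes was -0.31. The 7 tested genes of haem clearance differed between HSC + TBI and TBI by -0.96 (Hmox1) to -0.04, with a median of -0.17. Hmox1, named above for its likeness to the mean of the 10, is also among the 7 further Kupffer cell genes. Limma called 0 of the haem clearance genes in any of the 3 comparisons. Of all tested probes it called 7.25% between TBI and control, 3.23% between HSC + TBI and control and 0.796% between HSC + TBI and TBI.

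Markers of other cells moved beside these results. Of 7 tested lymphocyte markers, 7 were lower in HSC + TBI than in control rats without overlap, where 13.7% of all tested probes were. Among them, Cd3g and Cd79b entered the test only through the control group, where they were highest. The summed linear signal of the 7 markers was 1090 to 1911 in control, 714.7 to 1328 in TBI and 499.3 to 611.8 in HSC + TBI rats. Cd3g of the T cell receptor fell in both irradiated groups. Its difference between TBI and control was -3.60 (adjusted p = 0.000685 by limma), and it was well above background on 2 of 3 TBI arrays and on 0 of 3 HSC + TBI arrays, where it was at least 11.4-fold lower than in control (adjusted p = 0.000297 by limma). The B cell gene Cd79b was not well above background on any irradiated array and was at least 4.97-fold lower in TBI (adjusted p = 0.00317 by limma) and at least 2.9-fold lower in HSC + TBI than in control rats (adjusted p = 0.0026 by limma). After normexp background correction, which adds an offset of 50 to the signal, the differences from control were smaller, at -1.07 in TBI and -1.14 in HSC + TBI rats for Cd3g, which was still called, and -0.32 and -0.38 for Cd79b, which was not. Cd8b was lower in HSC + TBI than in TBI rats (difference -1.58, adjusted p = 0.0434 by limma), a call that was lost after normexp correction (difference -0.61) and without control rat 1, control rat 2, TBI rat 2 or any 1 of the HSC + TBI rats. Unlike the other 6 markers, Cd8b had a higher mean in TBI than in control rats (difference 0.78, adjusted p = 0.105 by limma). From control, Cd8b differed by -0.80 in HSC + TBI rats (adjusted p = 0.14 by limma). The T cell marker Cd3d differed by 0.03 between HSC + TBI and TBI. The summed signal of 5 tested monocyte markers was 46990 to 50850 in control, 47030 to 50430 in TBI and 40930 to 44400 in HSC + TBI rats. Most of that sum came from Fn1, which hepatocytes also make and which differed by -0.01 between HSC + TBI and TBI. The other 4 (S100a8, S100a9, Plac8 and Itgal) differed by -0.81 to -1.29. Of these, 3 were lower without overlap, where 8.74% of all tested probes were. Itgal, at the -1.29 end, overlapped and entered the test only through the TBI group. It was well above background on 2 of 3 control, 3 of 3 TBI and 1 of 3 HSC + TBI arrays. Plac8 of that list fell between HSC + TBI and control (difference -1.90, adjusted p = 0.0183 by limma), a call that was lost without control rat 2, control rat 3 or any 1 of the HSC + TBI rats. The monocyte markers Ccr2 and Vcan, the lymphocyte marker Cd3e, and the neutrophil markers Elane and Mmp8 were well above background on no array. The median difference between HSC + TBI and TBI was -1.14 for the 5 monocyte and -0.82 for the 7 lymphocyte markers, against -0.96 for the 10 genes, and it was -0.16 for 6 endothelial, -0.01 for 7 stellate cell and -0.01 for 9 hepatocyte markers. Lrat, a stellate cell gene, fell after TBI (difference -0.63, adjusted p = 0.0237 by limma), a call that was lost without any 1 of the control rats, TBI rat 1 or TBI rat 2 and under 4 other settings. Lrat was the 1 stellate cell marker called between TBI and control, where 7.25% of all tested probes were called. Of the 7 tested, 4 were lower and 3 higher there, with a median difference of -0.03. The part of infiltrating or lost blood cells in the values of the 10 genes was not tested.

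**Figure D5:**
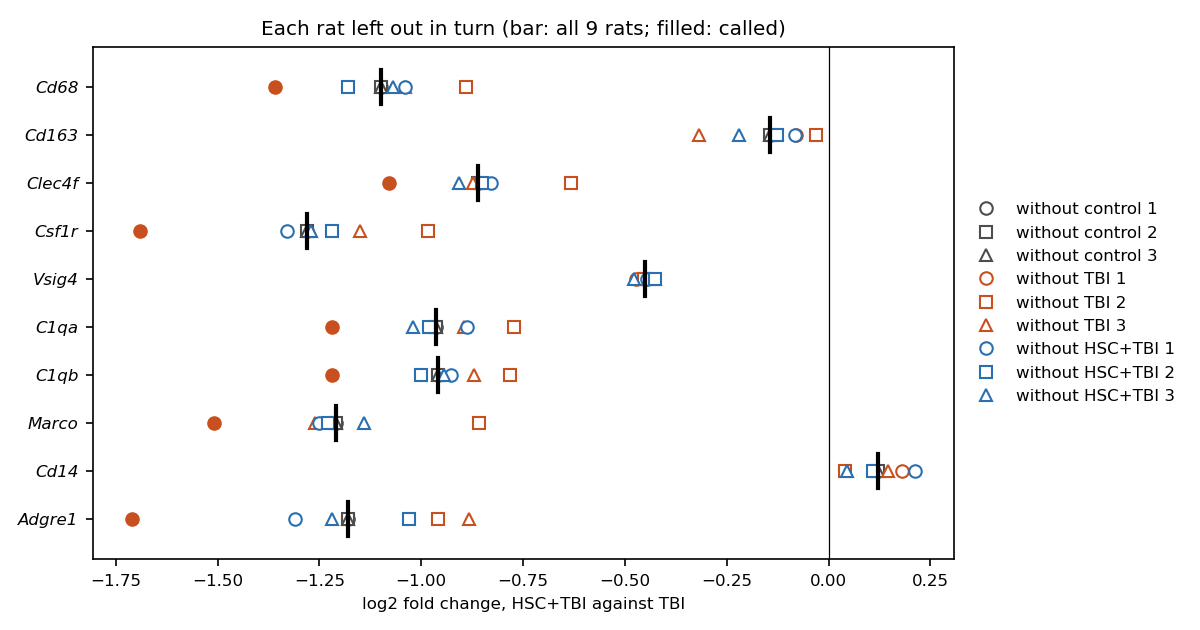
Difference in log2 signal between HSC + TBI and TBI (x axis) for each of the 10 genes (y axis), for all 9 rats (bar) and after the removal of single rats (symbols, filled where the gene was called). The median over the 10 genes runs from -1.22 to -0.78, and the widest shifts are those of Adgre1, from -1.71 to -0.88.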

How the data were processed

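Total RNA of 9 rat livers was labelled with Cy3 and hybridised to Agilent 4 x 44K rat arrays, 1 array per rat. Per the file headers, the authors read spot intensity values with Feature Extraction 10.7.3.1, which subtracts background, and deposited flags beside them as other values of 0 or 1. The deposited log2 values had been quantile normalised by the authors, and served as an alternative. Groups came from the sample labels.

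Here the processed signal (floor 1) was taken to log2, outlier spots were left out (84 to 115 of 43379 per array), and arrays were quantile normalised and averaged per probe with limma 3.58.1 in R 4.3.3. The result differed from the authors' values by a median of 0.029 to 0.0317 log2 units. A probe entered the test if some group had it well above background on each of its 3 arrays (25369 probes). One fit of the 3 group means with limma (lmFit and eBayes) gave adjusted p-values over all of them. The test was checked on simulated data with independent noise for each probe, whereas many genes here moved together over the rats. It called 81% to 85% of probes changed 3-fold and 28% to 36% of those changed 1.8-fold, with 4 to 7 false calls. The sources name the replicates as separate rats, and the number of arrays limits the precision.

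RefSeq accessions of the files named 16968 probes. The text names the 10 genes with every probe, of each other list the genes called in at least 1 comparison and defining markers beside a result, and the 5 genes most like the mean of the 10. The brightest probe of a gene was used. The 10 genes and the marker lists were chosen with earlier results of these data known. For a call whose dim group was below background on all arrays, the lowest signal among probes well above background on each array, or the probe's own where higher, gave the bound. Alternatives were another scaling, background correction, filter, test or probe rule, the authors' values, blocks for slide and replicate number, and leaving out each rat.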

Additional observations from a re-analysis of the deposited data

Results flagged for a closer look

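Of 85 tested marker genes beside the 10 macrophage genes, 2 were called in the direct limma comparison of the irradiated groups, where 0.796% of all tested probes were called. The difference of HSC + TBI from TBI was -1.08 for Itgb2 (adjusted p = 0.0435) and -1.58 for Cd8b (adjusted p = 0.0434), with every HSC + TBI rat below every TBI rat for both. For Itgb2 it ran from -1.25 to -0.95, with adjusted p from 0.0103 to 0.155, when single rats were left out, and the call was kept only when TBI rat 1 was the rat left out. For Cd8b it ran from -1.72 to -1.36, with adjusted p from 0.0304 to 0.149, and the call was kept without control rat 3, TBI rat 1 or TBI rat 3. None of the 10 macrophage genes met the same threshold.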

How the results depend on the processing

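The count of called genes among the 10 was not 0 under these alternatives. With slide as a random block it was 3 between TBI and control, 4 between HSC + TBI and control and 7 between HSC + TBI and TBI. It was 1 between HSC + TBI and control with only the 2 compared groups in the fit, and 1 against control and 1 against TBI by the methods' t-test without adjustment. Leaving out single rats gave 0 to 2, 0 to 0 and 0 to 7 in the 3 comparisons. Every other alternative gave 0. The cause was not tested. The median difference kept its sign under all alternatives. With TBI against control, Cd163 reversed to 0.0187 after normexp correction and to 0.0367 as a mean over its probes. Leaving out single rats gave -0.27 to 0.19 for Cd163, -0.12 to 0.33 for Clec4f and -0.0208 to 0.473 for C1qa there, and against control in HSC + TBI rats -0.416 to 0.0455 for Cd163, -0.366 to 0.0291 for Vsig4, -0.267 to 0.0546 for Adgre1 and -0.14 to 0.11 for Cd14.

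The replicate numbers were not taken to pair the rats, since the correlation of deviations between same-numbered rats ran from -0.143 to 0.191 and in 6 of 18 matches of a rat with another group the best match had its own number. With the replicate block, 0 of the 10 genes were called in each comparison, and 1575, 780 and 97 probes in all, against 1839, 820 and 202. Over all probes the same counts were 665, 490 and 6 after normexp correction, 1174, 1065 and 49 with only the compared groups in the fit, 4528, 2573 and 2256 with slide as a random block, 2123, 1693 and 933 by the methods' t-test without adjustment and 7, 2 and 0 with it. Between HSC + TBI and TBI they were 109 without a filter on dim probes and 40 with probes above background on all arrays, and the share of calls that were higher went from 29.2% to 13.7% with a 75th percentile shift in place of quantiles. With 3 arrays a group, single dim probes have wide intervals, and slide cannot be separated from group. Of the calls of other marker genes, adjusted values of the methods' t-test ended all of them, and its unadjusted values that of Tlr2. The fit of only the compared groups ended both calls of Itgb2 and those of Cebpb, Tlr2, Lrat and Cd8b. Normexp correction ended both calls of Cd79b and those of Cebpb, Cd8b and Itgb2 against TBI. Testing without a filter ended those of Cebpb, Tlr2, Cd8b and Itgb2 against TBI, and the stricter filter the last pair. Cd3g and Cd79b were not above background on all arrays, so their calls were not tested under the stricter filter. The replicate block ended the calls of Cebpb, Lrat and Cd8b and no other, and the percentile shift that of Lrat.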
